A study of Homo sapiens with 12 samples.

Results

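The genes described here build the cornified envelope, the crosslinked protein shell that replaces the plasma membrane of a keratinocyte at the end of its life, or lie with such genes in the epidermal differentiation complex of chromosome 1. They are 41 of the 20738 genes of the expression table, chosen by symbol from the S100 family, the small proline-rich (SPRR) and late cornified envelope (LCE) families, the fused S100 proteins, the transglutaminases and their envelope partners. The choice went by symbol and not by expression values, but it was made with earlier results of these data known. Levels were measured by RNA-seq in UM-SCC-47, also written UM-SCC-047, and UPCI-SCC-090, established lines of human papillomavirus-positive head and neck squamous cell carcinoma, which is what HPV+ HNSCC stands for. The cells were grown in 6-well dishes with serum and received for 72 h either 500 nM JQ1 or, as the control, 0.1% DMSO, in 4 groups of 3 libraries and 12 libraries in all. JQ1 fills the acetyl-lysine pocket of BET bromodomain proteins and so takes them off acetylated chromatin. Each line stands for 1 tumor, the genotype was not altered, and the comparison has 1 dose and 1 time.

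In stratified epithelium the envelope is laid down from inside. Envoplakin and periplakin form a scaffold under the membrane, transglutaminases fix involucrin and then the small proline-rich proteins onto it, and rising calcium, which S100 and calmodulin-like proteins bind, accompanies each step. Most of the precursor genes lie side by side in the epidermal differentiation complex, and AP-1, Grainyhead-like and C/EBP factors are textbook regulators of several of them. Moist mucosa such as that of the mouth and pharynx keeps involucrin, SPRR proteins and many S100 proteins but makes little of the LCE proteins and filaggrin of dry skin.

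The libraries summed to between 20349275 and 30788657 estimated counts. All 19 epithelial markers examined had counts in every group. Counts above 0 alone are a weak check of the label of an epithelial line, since most myeloid and fibroblast markers had some too. The summed levels given below were far higher for the epithelial markers. Of 16 neutrophil and myeloid markers, 5 (CSF3R, FCGR3B, MPO, ELANE and TYROBP) were at 0 in all 12 libraries, and of 10 fibroblast markers THY1 and POSTN were. CPM are counts scaled to library size and by TMM within a line. For the marker sums and for levels per kb the scaling was over all 12 libraries. The summed myeloid markers lay between 33 and 49.5 CPM in UM-SCC-47 and between 6.56 and 13.2 CPM in UPCI-SCC-090. DMSO and JQ1 overlapped in both lines. The summed fibroblast markers were lower with JQ1 without overlap, at 13.1 to 15.3 and 5.45 to 6.65 CPM with DMSO and JQ1 in UM-SCC-47 and at 20.4 to 30.7 and 2.8 to 5.62 CPM in UPCI-SCC-090. COL1A1 alone had means of 12.3 and 22.1 CPM with DMSO in UM-SCC-47 and UPCI-SCC-090. The summed epithelial markers were higher with JQ1, at 14500 to 17000 and 44000 to 64500 CPM in UM-SCC-47 and at 10200 to 15400 and 24300 to 40400 CPM in UPCI-SCC-090. The UM-SCC-47 sum was weighted to KRT8 and KRT18, whose means went from 5680 and 2290 to 28300 and 15800 CPM. Of the 19 epithelial markers, 5 rose and 8 fell there, beside 16.1% and 25.5% of all genes. Among the 18 tested in UPCI-SCC-090, 6 rose and 2 fell, beside 7.67% and 20.4%. The part of these shifts in the results given here was not tested. Ribosomal protein mRNAs took 4.59 to 6.25% of the counts in UPCI-SCC-090 with DMSO and 11.4 to 12.2% with JQ1, against 6.64 to 7.01% and 6.79 to 9.73% in UM-SCC-47. The slope of log2 CPM over GC content was steepest in UM-SCC-47 JQ1 replicate 3, UPCI-SCC-090 DMSO replicate 2 and UPCI-SCC-090 JQ1 replicate 3. The sources used here do not say whether replicates were separate cultures, so the p-values here reflect no more than the spread among the samples, possibly a technical one. In bulk RNA a smaller share of differentiated cells and less RNA per cell cannot be told apart.

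With DMSO the S100 genes dominated the set in both lines. Compared per kilobase of transcript, S100A6 had the highest level in UM-SCC-47, at 1110 ± 84.8 CPM per kb (SD, n = 3), followed by S100A11 at 674 ± 33.5 and S100A10 at 643 ± 17.5, which did not differ beyond their spread. In UPCI-SCC-090 the leading levels were those of S100A6 at 1210 ± 406, S100A2 at 1200 ± 445 and S100A11 at 1140 ± 264 CPM per kb, whose spreads overlapped. The core structural genes were far lower. Involucrin (IVL) stood at 3.78 ± 0.15 CPM per kb in UM-SCC-47, and there the plakins PPL and EVPL stood at 29.6 ± 3.01 and 6.18 ± 0.23. Many members were at or near 0, since S100A12, LCE3A and RPTN had 0 counts in all 12 libraries and 8 further members had 1 to 10 counts over all of them. In total 18 members were too low for any test, and 20 could be tested in UM-SCC-47, 19 in UPCI-SCC-090 and 18 in both.

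**Figure D1:**
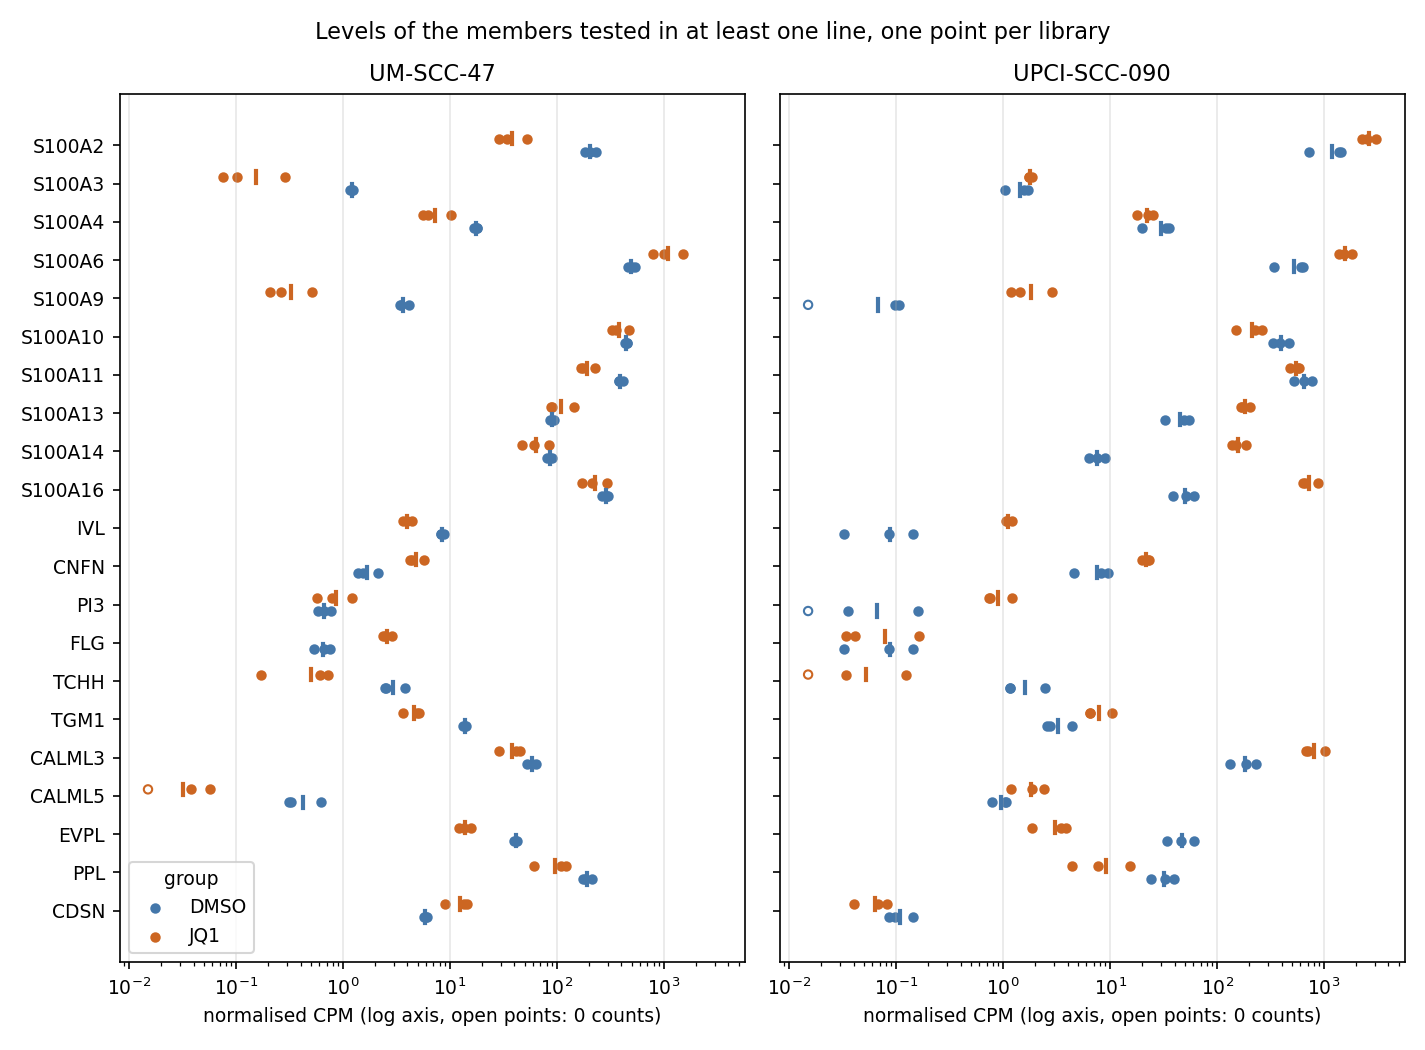
Normalised CPM on a log axis of the 21 members tested in at least 1 line, with 1 point per library, DMSO in blue, JQ1 in orange and a bar at each group mean. Open points at the left edge are libraries with 0 counts. In UPCI-SCC-090 the JQ1 points of S100A14, S100A16, IVL and CALML3 lie to the right of all DMSO points, while those of EVPL, PPL and TCHH lie to the left in both lines.

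The lines differed before any JQ1 was given. Among the 23 members tested over all 12 libraries, 11 were lower and 4 higher with DMSO in UPCI-SCC-090, compared with UM-SCC-47, (edgeR BH-adjusted p under 0.05), where 19.9% of all genes tested were lower and 23.3% higher, 43.2% in all. IVL was lower by 6.52 ± 0.41 on the log2 scale (standard error, edgeR p after Benjamini-Hochberg adjustment, here BH-adjusted p, of 3.1e-07). S100A9, a subunit of calprotectin, differed by −5.57 ± 0.66 and CDSN, the adhesive protein of corneodesmosomes, by −5.68 ± 0.34 (edgeR BH-adjusted p = 3.2e-05 and 2.6e-07). S100A14, S100A16, S100A13, PI3, FLG, TGM1, TGM5 and PPL were the other lower members, and S100A2, S100A11, CNFN and CALML3 were the higher ones. FLG, CDSN and TGM5 had 7, 9 and 0 counts with DMSO in UPCI-SCC-090 and were too low for a test within that line. They passed the filter through UM-SCC-47, where they were higher, so the counts describe the members that passed and no more. The S100A11 call was lost with RLE size factors (edgeR BH-adjusted p = 0.05), by DESeq2 (0.073), without UPCI-SCC-090 DMSO replicate 3 (0.078), and without the 3 libraries of steep GC trend (0.22). The PI3 value of −3.13 became −4.94 without UPCI-SCC-090 DMSO replicate 3. With the replicate block CALML5 was called higher as well (1.29, edgeR BH-adjusted p = 0.022, against 0.051 without it). The tests of all 12 libraries compare these cultures and not classes of tumors.

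With JQ1 more of the tested members fell than rose in UM-SCC-47, and more rose than fell in UPCI-SCC-090. In UM-SCC-47, 10 of 20 fell, 4 (S100A6, CNFN, FLG and CDSN) rose and 6 were not called by edgeR's quasi-likelihood test, beside 25.5% and 16.1% of all genes tested in that line, and their median log2 fold change was −0.80 against −0.03 for all genes. In UPCI-SCC-090, 11 of 19 rose and 4 fell, beside 7.67% and 20.4% of all genes, with a median of 1.27 against −0.14. The members that passed the filter are not the whole set, and some passed through the group in which they were high, so these counts describe them and no more. S100A2, S100A9, IVL and TGM1 fell in UM-SCC-47 and rose in UPCI-SCC-090, that is 4 of the 18 members tested in both lines, a pattern seen in 0.414% of all genes tested in both. TCHH, EVPL and PPL fell in both lines, 3 of the 18 and near the 13.1% of all genes that did. S100A6 and CNFN rose in both, where 4.68% of all genes did. No member rose in UM-SCC-47 and fell in UPCI-SCC-090, which lies near the 0.69% of all genes with that pattern. FLG and CDSN, which rose in UM-SCC-47, were not tested in UPCI-SCC-090. The fall in UM-SCC-47 took in 16 members without its JQ1 replicate 2, and the count of falling members in UPCI-SCC-090 was 2 without any of its DMSO replicates 1, 2 and 3 or JQ1 replicates 1 and 3. With RLE size factors the median of all genes shifted from −0.03 to 0.12 in UM-SCC-47 and from −0.14 to 0.14 in UPCI-SCC-090, and with library sizes alone to −0.28 and −0.38. The share of all calls that were higher was then 42.3% in UPCI-SCC-090 with RLE against 27.4% with TMM, and with library sizes alone 24.1% in UM-SCC-47 against 38.7%. None of the members called in either line changed direction under these scalings.

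**Figure D2:**
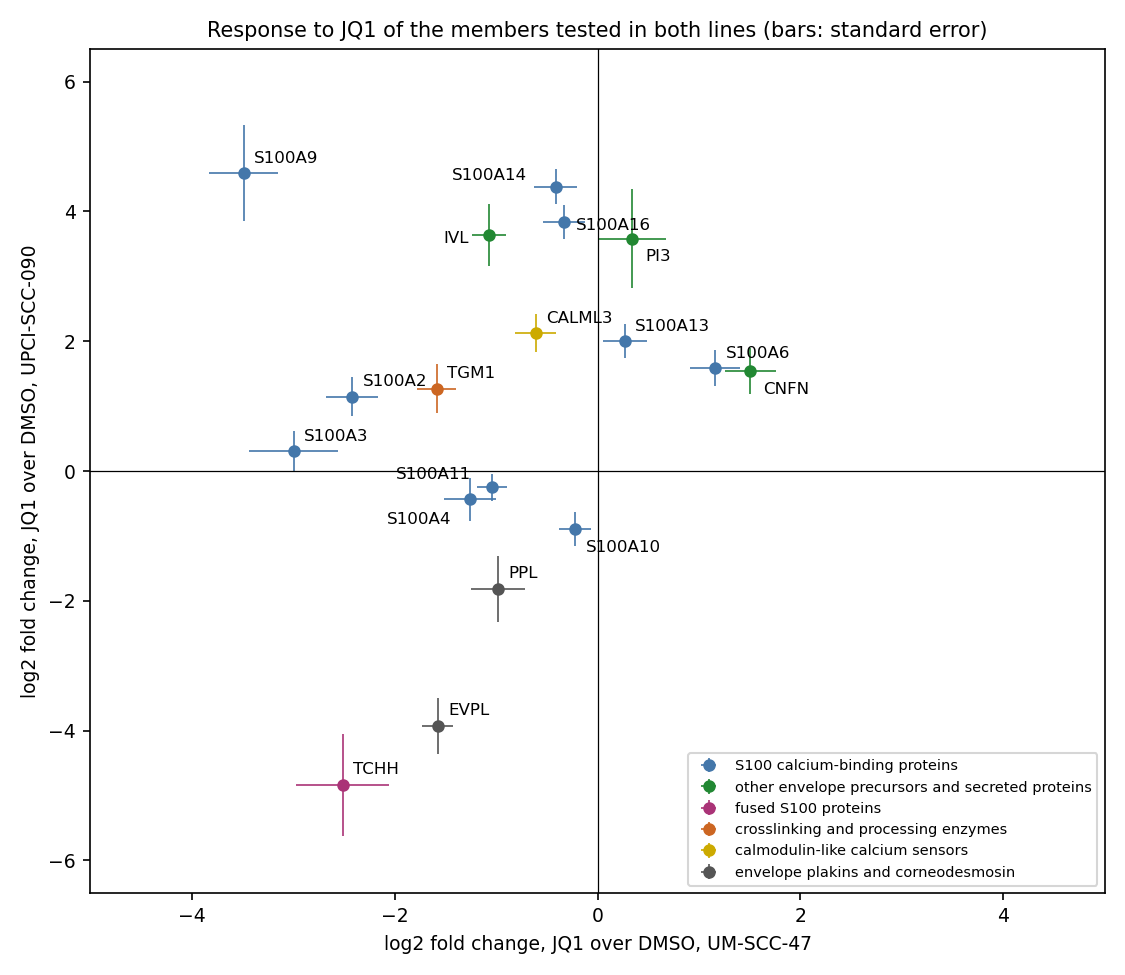
Log2 fold change of JQ1 over DMSO in UM-SCC-47 (x axis) and UPCI-SCC-090 (y axis) for the 18 members tested in both lines, with standard errors as bars and colors for the roles of the proteins. Among the points at the upper left, S100A2, S100A9, IVL and TGM1 passed the test in both lines, and TCHH, EVPL and PPL lie at the lower left.

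The difference between the responses was tested directly, as the interaction of line and treatment over 12 libraries. In 13 of the 23 members tested UPCI-SCC-090 had the higher response, and in 1, EVPL, it was lower. Of all 14396 genes tested 2.93% were called higher and 3.63% lower. SPRR1B and TGM5 were tested in neither line alone, and CALML5, FLG and CDSN in 1 line. Some members passed the filter through the group in which they were high. The count and the median that follows therefore describe the members tested and no more. The median difference over the tested members was 2.85 on the log2 scale, against −0.03 for all genes. SPRR1B and TGM5 were at 0 in the UM-SCC-47 JQ1 libraries, and TGM5 also in those of UPCI-SCC-090 with DMSO. With a floor of 3 counts over such a group they were at 4.19 and 3.39. Both stayed above the median, which was 2.85 as well, so its lack of change is no test of the floor.

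Of the 13 S100 members, small calcium-binding proteins with a pair of EF hands, 10 were tested in each line. In UM-SCC-47, 5 fell and 1 rose, beside 25.5% and 16.1% of all genes. In UPCI-SCC-090, 6 rose and 1 fell, beside 7.67% and 20.4% of all genes. S100A9 (ENSG00000163220, chromosome 1 from 153330330 to 153333499 of GRCh37) was at 4.09, 3.47 and 3.41 CPM in the DMSO libraries of UM-SCC-47 and at 0.263, 0.515 and 0.207 CPM with JQ1. In UPCI-SCC-090 it was at 0.107, 0 and 0.0968 CPM with DMSO and at 1.19, 2.88 and 1.44 CPM with JQ1. Neither line had overlap between its groups, and the JQ1 libraries lay below in UM-SCC-47 and above in UPCI-SCC-090. The changes on the log2 scale were −3.49 ± 0.34 and 4.59 ± 0.74 (standard error, edgeR BH-adjusted p = 0.00063 and 0.0065), and they differed by 8.21 ± 0.87 (edgeR BH-adjusted p = 0.00035). The UPCI-SCC-090 value rests on 6 counts with DMSO against 141 with JQ1. S100A8, the partner of S100A9 in calprotectin, had no more than 4 counts in any group, and S100A12, which myeloid cells also carry, had none. S100A7, psoriasin, had 1 count with DMSO and 1 with JQ1 in UM-SCC-47 and 5 and 7 counts in UPCI-SCC-090.

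S100A2, a p53-family target found in basal squamous cells, was at 232, 202 and 181 CPM with DMSO and 34, 52.4 and 28.6 CPM with JQ1 in UM-SCC-47. In UPCI-SCC-090 it was at 724, 1440 and 1370 CPM with DMSO and 2500, 3080 and 2250 CPM with JQ1. The groups were again apart in both lines and in opposite order. Its log2 fold changes were −2.42 ± 0.26 and 1.15 ± 0.30 (edgeR BH-adjusted p = 0.0008 and 0.031), with a difference of 3.67 ± 0.48 (edgeR BH-adjusted p = 0.0012). The rise in UPCI-SCC-090 missed the threshold without DMSO replicate 3 (edgeR BH-adjusted p = 0.07), JQ1 replicate 1 (0.076) or JQ1 replicate 2 (0.051).

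S100A14, S100A16 and S100A13 lie beside each other at the far end of the complex, and all of them rose in UPCI-SCC-090 while none passed the test in UM-SCC-47. S100A14 (ENSG00000189334, chromosome 1 from 153586731 to 153589462 of GRCh37), which has been tied to epithelial junctions and motility, went from 6.28, 8.98 and 7.49 CPM to 139, 187 and 149 CPM in UPCI-SCC-090. The same gene in UM-SCC-47 was at 89, 85.9 and 80.6 CPM with DMSO and 60.9, 83.5 and 47.5 CPM with JQ1, and there the groups overlapped. The rise was 4.38 ± 0.27 on the log2 scale (edgeR BH-adjusted p = 0.0023), a 20.9-fold change, and the difference between the lines was 4.90 ± 0.40 (edgeR BH-adjusted p = 7.6e-05). S100A16 went from 39.1, 60.3 and 51.5 CPM to 663, 870 and 634 CPM in UPCI-SCC-090, with a log2 fold change of 3.84 ± 0.26 (edgeR BH-adjusted p = 0.003). Its UM-SCC-47 libraries were at 292, 302 and 264 CPM with DMSO and 214, 294 and 172 CPM with JQ1, which overlap, and the responses differed by 4.29 ± 0.40 (edgeR BH-adjusted p = 0.00024). With JQ1 both genes thus reached in UPCI-SCC-090 levels above every library of UM-SCC-47, on a scale set within each line. S100A13, which is bound up with the export of proteins that lack a signal peptide, rose from 32.3, 54.7 and 48.7 CPM to 172, 202 and 169 CPM, a log2 fold change of 2.00 ± 0.26 (edgeR BH-adjusted p = 0.0044). It shares sequence with S100A1 on the opposite strand, which was at 0.60 ± 0.40 in UPCI-SCC-090 and was not called (edgeR BH-adjusted p = 0.32). In UM-SCC-47 S100A13 was at 93.6, 89.9 and 85.2 CPM with DMSO and 90.7, 145 and 87.4 CPM with JQ1, and the difference of 1.83 ± 0.39 between the lines (edgeR BH-adjusted p = 0.019) was lost without UM-SCC-47 DMSO replicate 1 (0.056) or JQ1 replicate 1 (0.064). Without UM-SCC-47 JQ1 replicate 2, its JQ1 library of highest level for both genes, S100A14 and S100A16 were called lower in UM-SCC-47 (edgeR BH-adjusted p = 0.017 and 0.021). They were called lower there in 6 and 5 of 19 alternatives, among them the length correction (edgeR BH-adjusted p = 0.0019 for each).

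S100A6 (calcyclin), which rises in dividing and stimulated cells, was the S100 gene that rose in both lines. Its libraries were at 531, 498 and 456 CPM with DMSO and 997, 1520 and 798 CPM with JQ1 in UM-SCC-47, and at 343, 603 and 632 CPM and then 1530, 1840 and 1370 CPM in UPCI-SCC-090. No JQ1 library overlapped a DMSO library of its line. The log2 fold changes of 1.16 ± 0.25 and 1.59 ± 0.28 (edgeR BH-adjusted p = 0.011 and 0.0085) differed by 0.53 ± 0.44, which did not pass the test (edgeR BH-adjusted p = 0.6).

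S100A11, S100A4 and S100A3 fell in UM-SCC-47 and did not pass the test in UPCI-SCC-090, and of these the difference between the lines passed for S100A3. S100A11, a keratinocyte S100 protein of the envelope, went from 381, 376 and 413 CPM to 166, 227 and 175 CPM, a log2 fold change of −1.04 ± 0.15 (edgeR BH-adjusted p = 0.0025). In UPCI-SCC-090 it was at 527, 771 and 649 CPM with DMSO and 587, 478 and 568 CPM with JQ1, with overlap, and the difference between the lines had an edgeR BH-adjusted p of 0.1. S100A4, known from motile and mesenchymal cells, went from 17.7, 17.8 and 16.7 CPM to 6.21, 10.1 and 5.53 CPM in UM-SCC-47, a log2 fold change of −1.26 ± 0.26 (edgeR BH-adjusted p = 0.0096). Its UPCI-SCC-090 libraries, at 19.7, 35.5 and 33.5 CPM with DMSO and 22.6, 25.3 and 17.7 CPM with JQ1, overlapped. Of S100A3, which overlaps S100A4 on the same strand so that reads can be split between them, UM-SCC-47 had 94 counts with DMSO and 9 with JQ1. The log2 fold change was −3.00 ± 0.44 there and 0.31 ± 0.30 in UPCI-SCC-090 (edgeR BH-adjusted p = 0.0026 and 0.51), a difference of 3.40 ± 0.55 (edgeR BH-adjusted p = 0.0043).

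S100A10, which pairs with annexin A2 at the membrane, fell in UPCI-SCC-090 from 330, 466 and 387 CPM to 264, 150 and 224 CPM, without overlap. The log2 fold change was −0.89 ± 0.27 (edgeR BH-adjusted p = 0.049). This call was lost with the replicate block, at −0.91 (edgeR BH-adjusted p = 0.067), in each of the 6 fits that left out a UPCI-SCC-090 library (DMSO replicates 1, 2 and 3 at 0.058, 0.16 and 0.13, JQ1 replicates 1, 2 and 3 at 0.11, 0.1 and 0.13), with RLE size factors (0.17) and by DESeq2 (0.3). In UM-SCC-47 it was at 447, 452 and 431 CPM with DMSO and 324, 466 and 353 CPM with JQ1, with overlap. ANXA2, its partner, rose in both lines, by 1.25 ± 0.21 and 1.53 ± 0.17 on the log2 scale (edgeR BH-adjusted p = 0.0044 and 0.0037).

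Along the complex, most tested genes sat at its ends, and between them FLG, CRCT1, IVL and S100A9 were the tested genes in a long stretch otherwise too low for a test within a line. The stretch from S100A10 to S100A1 (chromosome 1 from 151955391 to 153604515 of GRCh37, 1649 kb) held 62 genes of the table, of which 28 were members. Of the 34 others, 19 had 0 counts in all 12 libraries and 26 had at most 10, and 1 was tested in each line and 0 were called. Within the complex 7 of 12 tested members rose and 2 fell in UPCI-SCC-090, beside 7.67% and 20.4% of all genes. In UM-SCC-47, 2 of 13 rose and 7 fell, beside 16.1% and 25.5% of all genes. In the far S100 cluster of UPCI-SCC-090, S100A14 and S100A16 rose by 4.38 and 3.84 on the log2 scale, whereas S100A3 and S100A4, which start 1564 and 1561 kb from the start of S100A10 where those genes start 1631 and 1624 kb from it, were at 0.31 and −0.43 and did not pass the test.

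**Figure D3:**
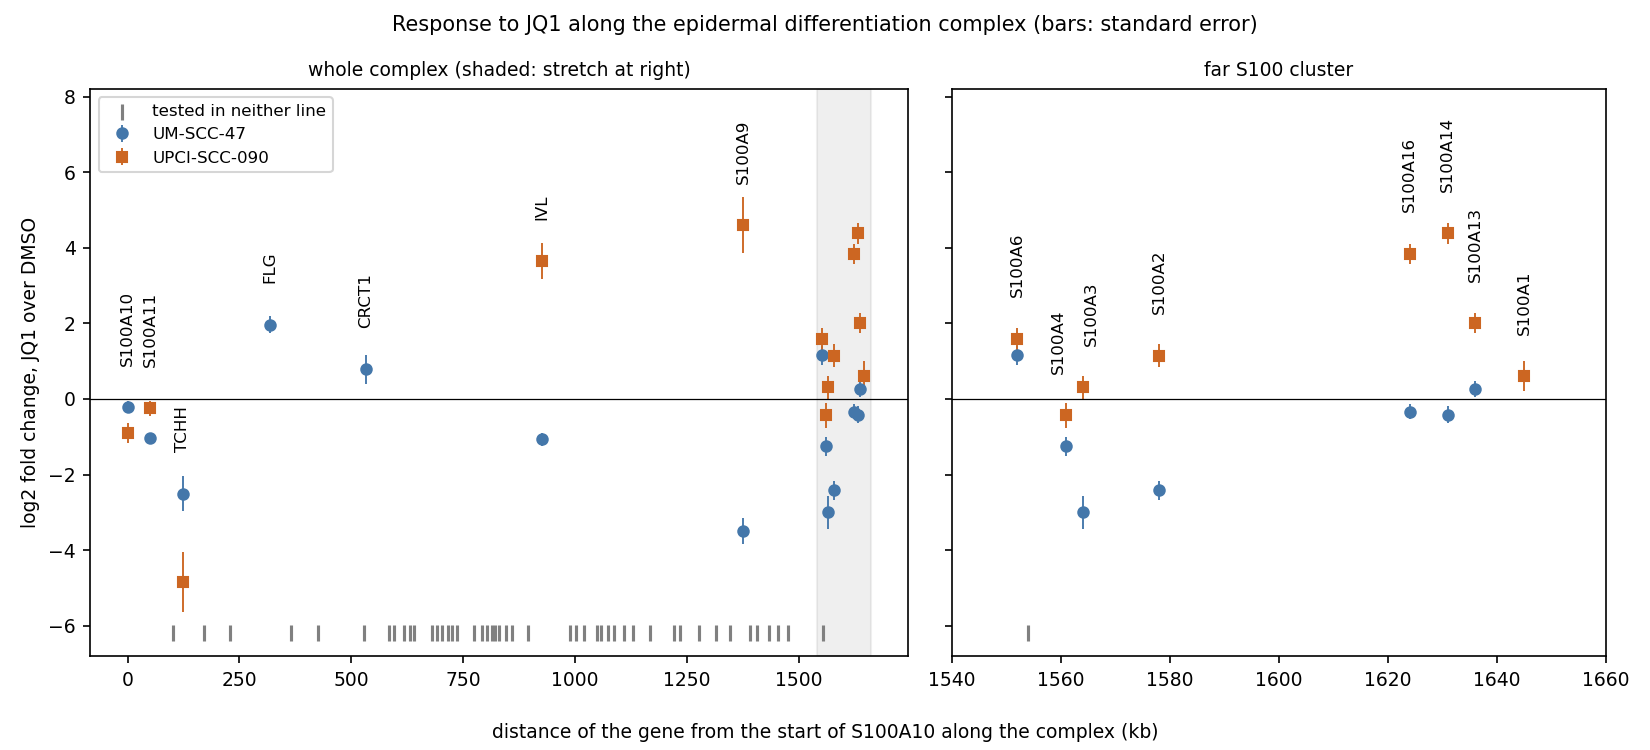
Log2 fold change of JQ1 over DMSO against the distance of each gene from the start of S100A10, in kb, with UM-SCC-47 as blue circles, UPCI-SCC-090 as orange squares and standard errors as bars; the right panel enlarges the shaded stretch. Grey ticks mark genes tested in neither line, which fill most of the middle of the complex. The orange squares of S100A14 and S100A16 stand at 4.38 and 3.84, with the blue circles of the same genes near 0.

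Outside the S100 family the precursors that could be measured were IVL, CNFN and PI3. IVL (ENSG00000163207, chromosome 1 from 152881022 to 152884362 of GRCh37) encodes involucrin, the glutamine-rich rod that transglutaminase fixes early to the growing envelope. In UM-SCC-47 it fell from 8.15, 8.18 and 8.75 CPM to 4.37, 3.6 and 3.98 CPM, and in UPCI-SCC-090 it rose from 0.143, 0.0856 and 0.0323 CPM to 1.08, 1.22 and 1.07 CPM. The groups did not overlap in either line, and the treated UPCI-SCC-090 libraries stayed below the treated UM-SCC-47 libraries. The log2 fold changes were −1.07 ± 0.17 and 3.64 ± 0.48 (edgeR BH-adjusted p = 0.0034 and 0.0044), with a difference of 4.82 ± 0.50 (edgeR BH-adjusted p = 0.00031). Behind the rise were 7 counts with DMSO and 88 with JQ1, summed over libraries. All calls of IVL held in each alternative tried.

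CNFN, cornifelin, rose in both lines, from 1.38, 2.12 and 1.53 CPM to 4.18, 5.72 and 4.39 CPM in UM-SCC-47 and from 4.6, 9.54 and 8.29 CPM to 19.9, 23 and 22.4 CPM in UPCI-SCC-090. The treated libraries lay above all untreated ones in each line. The changes of 1.50 ± 0.25 and 1.54 ± 0.36 on the log2 scale (edgeR BH-adjusted p = 0.0042 and 0.021) differed by 0.12 ± 0.48 (edgeR BH-adjusted p = 0.95). In UPCI-SCC-090 the call was lost without DMSO replicate 3 (edgeR BH-adjusted p = 0.074) or JQ1 replicate 1 (0.075), and with a correction for transcript length (0.82 on the log2 scale, 0.057). PI3, or elafin, is a protease inhibitor that carries a transglutaminase substrate domain. It was at 0.0357, 0 and 0.161 CPM with DMSO and 0.746, 1.22 and 0.741 CPM with JQ1 in UPCI-SCC-090, groups that are apart, and its log2 fold change was 3.58 ± 0.76 (edgeR BH-adjusted p = 0.016). Without UPCI-SCC-090 DMSO replicate 1 the adjusted p was 0.061. In UM-SCC-47 it was at 0.589, 0.656 and 0.763 CPM with DMSO and 0.79, 1.2 and 0.568 CPM with JQ1, with overlap. The difference between the lines, 3.35 ± 0.85 (edgeR BH-adjusted p = 0.039), was lost with the replicate block (3.35, edgeR BH-adjusted p = 0.074) and in 8 of the 12 fits without 1 library. Those were the fits without UM-SCC-47 DMSO replicates 1, 2 and 3 (0.084, 0.085 and 0.1), UM-SCC-47 JQ1 replicates 1 and 3 (0.1 and 0.066), UPCI-SCC-090 DMSO replicates 1 and 2 (0.081 and 0.067) and UPCI-SCC-090 JQ1 replicate 1 (0.064).

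The small proline-rich proteins, the flexible cross-bridges of the envelope, were too low to test within a line. SPRR1A, SPRR1B and SPRR3 had 22, 28 and 22 counts over the DMSO libraries of UM-SCC-47 and 0, 0 and 1 with JQ1. With a group at 0 set to a floor of 3 counts, SPRR1A was at least 5.91-fold and SPRR1B at least 7.52-fold lower with JQ1, figures that cover no spread between libraries. In UPCI-SCC-090 the same genes had 16, 12 and 10 counts with DMSO and 13, 26 and 33 with JQ1. SPRR1B passed the filter over 12 libraries, and its response differed between the lines (edgeR BH-adjusted p = 0.023), a call lost without UM-SCC-47 DMSO replicate 1 (0.062), DMSO replicate 2 (0.058) or JQ1 replicate 1 (0.064), or without UPCI-SCC-090 JQ1 replicate 1 (0.056). The SPRR2 genes, near-identical copies among which reads are split uncertainly, had 0 to 4 counts in every group. LCE3D and LCE3E had 1 count each in all, and SBSN and KRTDAP, secreted products of suprabasal cells, had 2 to 8 counts per group.

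The start regions of 4 genes that rose in UPCI-SCC-090 are printed to show the sequence in front of them, each chosen because it has a single start in the table used. Each is 300 bases from RefSeq (GRCh38.p14), 250 before the first base of the transcript and 50 from it on, 5′ to 3′ along the gene, and capitals mark a listed motif. The motifs sought on both strands were TGANTCA for AP-1, AACCNGTT for Grainyhead-like and TTGCNNAA for C/EBP factors.
IVL, chr1:152908296-152908595, plus strand: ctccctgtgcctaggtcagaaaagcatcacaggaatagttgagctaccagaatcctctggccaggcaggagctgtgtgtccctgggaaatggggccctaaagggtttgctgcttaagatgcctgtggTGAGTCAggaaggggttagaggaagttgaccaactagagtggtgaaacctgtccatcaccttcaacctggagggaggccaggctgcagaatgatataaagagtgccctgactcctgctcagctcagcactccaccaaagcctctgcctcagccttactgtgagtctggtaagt
S100A9, chr1:153357604-153357903, plus strand: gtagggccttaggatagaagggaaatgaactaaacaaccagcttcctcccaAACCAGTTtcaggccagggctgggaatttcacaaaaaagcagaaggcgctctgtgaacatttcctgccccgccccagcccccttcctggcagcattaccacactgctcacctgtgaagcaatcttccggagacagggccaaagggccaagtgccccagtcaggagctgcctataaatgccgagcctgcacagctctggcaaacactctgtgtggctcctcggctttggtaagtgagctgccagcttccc
S100A14, chr1:153616276-153616575, minus strand: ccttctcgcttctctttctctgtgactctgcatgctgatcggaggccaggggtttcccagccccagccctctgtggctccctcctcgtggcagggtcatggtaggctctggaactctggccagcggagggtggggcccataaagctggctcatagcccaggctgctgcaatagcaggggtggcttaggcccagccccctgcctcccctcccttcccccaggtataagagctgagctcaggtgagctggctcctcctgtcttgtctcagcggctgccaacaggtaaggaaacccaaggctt
CALML3, chr10:5524711-5525010, plus strand: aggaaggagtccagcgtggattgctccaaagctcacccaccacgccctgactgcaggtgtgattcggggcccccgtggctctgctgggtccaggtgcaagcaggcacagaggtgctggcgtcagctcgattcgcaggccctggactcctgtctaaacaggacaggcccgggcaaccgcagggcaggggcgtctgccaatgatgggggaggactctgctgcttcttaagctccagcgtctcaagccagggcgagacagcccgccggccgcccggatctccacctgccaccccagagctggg
The capitals in IVL are an AP-1 motif that starts 123 bases before the transcript, and those in S100A9 a Grainyhead-like motif that starts 199 bases before it. The windows of S100A14 and CALML3 hold none of the listed letters. RefSeq gave 41 start regions for 35 of the 41 members. An AP-1 motif occurred in 15 of them, each of another member, against 7.71% of all 35116 start regions. A Grainyhead-like motif occurred in 3 (RPTN, S100A9 and TGM5) and a C/EBP motif in 6, against 1.73% and 10.5%. Of the 15 with AP-1 letters, S100A2, S100A3, IVL, FLG and TCHH were tested in at least 1 line, and the others, such as SPRR1A, SPRR1B and SPRR3, were too low. A match describes letters and not a bound site.

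The fused S100 proteins, long repeat proteins whose S100 domain sits at the start, went in different directions. FLG (ENSG00000143631, chromosome 1 from 152274641 to 152297715 of GRCh37), or filaggrin, which bundles keratin in skin, rose in UM-SCC-47 from 0.753, 0.656 and 0.539 CPM to 2.48, 2.35 and 2.84 CPM. The groups were apart, and the log2 fold change was 1.96 ± 0.22 (edgeR BH-adjusted p = 0.001). In UPCI-SCC-090 it had 7 counts with DMSO and 6 with JQ1 and was not tested. The interaction, −1.99 ± 0.83, was not called (edgeR BH-adjusted p = 0.21), though it was without UPCI-SCC-090 JQ1 replicate 2 (−3.04, 0.034). TCHH, trichohyalin, a filament protein of hair follicles and tongue papillae, fell in both lines. It went from 2.49, 2.51 and 3.82 CPM to 0.602, 0.172 and 0.723 CPM in UM-SCC-47 and from 2.46, 1.16 and 1.16 CPM to 0.0339, 0 and 0.124 CPM in UPCI-SCC-090. No library of one treatment reached those of the other. The log2 fold changes were −2.51 ± 0.46 and −4.84 ± 0.79 (edgeR BH-adjusted p = 0.0061 and 0.0068). Their difference of −2.23 ± 0.92 was not called (edgeR BH-adjusted p = 0.2). HRNR, hornerin, had 10 and 21 counts in UM-SCC-47 and 8 and 1 in UPCI-SCC-090 with DMSO and JQ1, and CRNN had a single count in all.

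Among the enzymes, TGM1 (ENSG00000092295, chromosome 14 from 24718320 to 24733638 of GRCh37), the membrane-bound transglutaminase that crosslinks the envelope, fell in UM-SCC-47 from 13.9, 14 and 13.3 CPM to 4.89, 5.15 and 3.67 CPM. In UPCI-SCC-090 it went from 2.57, 4.36 and 2.74 CPM to 6.44, 10.4 and 6.51 CPM. The groups were apart in both lines, in opposite order. The log2 fold changes were −1.59 ± 0.19 and 1.27 ± 0.37 (edgeR BH-adjusted p = 0.0013 and 0.046), and the difference was 2.98 ± 0.49 (edgeR BH-adjusted p = 0.0049). The rise in UPCI-SCC-090 stood close to the threshold. It was lost without any 1 of the 6 libraries, at adjusted p of 0.12, 0.055 and 0.16 for DMSO replicates 1, 2 and 3 and 0.11, 0.07 and 0.055 for JQ1 replicates 1, 2 and 3, and with upper-quartile factors (0.07) and library sizes alone (0.093). The fall in UM-SCC-47 and the difference between the lines passed in every alternative run. TGM5, another transglutaminase of the upper epidermis, had 35 counts over the DMSO libraries of UM-SCC-47 and 0 with JQ1, at least 9.4-fold lower against the floor of 3 counts, and 0 and 3 counts in UPCI-SCC-090. Its interaction passed the test (edgeR BH-adjusted p = 0.024) but not with the replicate block (9.66, edgeR BH-adjusted p = 0.099), nor without UM-SCC-47 DMSO replicates 1, 2 or 3 (0.066, 0.057 and 0.063) or UPCI-SCC-090 JQ1 replicates 1 or 3 (0.11 and 0.057). That fitted value depends on the prior count and is no measure of size. TGM3 had 1 to 4 counts per group, and CASP14, the caspase that processes filaggrin, had 17 and 10 counts in UM-SCC-47 and 9 and 5 in UPCI-SCC-090 with DMSO and JQ1.

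The calmodulin-like calcium sensors stood higher in UPCI-SCC-090 with JQ1 than anywhere else. CALML3 (ENSG00000178363, chromosome 10 from 5566924 to 5568734 of GRCh37), a calmodulin-like protein of epithelia that binds unconventional myosin, rose there from 133, 230 and 188 CPM to 711, 1020 and 677 CPM. In UM-SCC-47 it was at 58.7, 64.2 and 51.9 CPM with DMSO and 41.6, 44.6 and 28.4 CPM with JQ1. The groups were apart in both lines, but only the rise passed the test, with a log2 fold change of 2.13 ± 0.29 against −0.61 ± 0.20 (edgeR BH-adjusted p = 0.0046 and 0.052). The difference was 2.85 ± 0.43 (edgeR BH-adjusted p = 0.0029). The fall in UM-SCC-47 passed in 8 of 19 alternatives. Among these were the fits without its JQ1 replicate 2 (edgeR BH-adjusted p = 0.036), with the replicate block (0.024) and with GC correction (0.0057). CALML5, a skin calmodulin that binds transglutaminase 3, had 33 counts with DMSO and 2 with JQ1 in UM-SCC-47. In UPCI-SCC-090 it was at 0.785, 1.07 and 1.03 CPM with DMSO and 1.86, 2.43 and 1.19 CPM with JQ1, with no overlap, a log2 fold change of 0.93 ± 0.36 that was not called (edgeR BH-adjusted p = 0.1). It was called with the correction for GC content (1.71, edgeR BH-adjusted p = 0.0035) and for GC and length (1.02, 0.048), each with the replicate block too (1.72 and 1.03, 0.0062 and 0.036). The responses of the lines differed by 4.59 ± 0.84 (edgeR BH-adjusted p = 0.0088).

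The scaffold genes fell in both lines. EVPL (ENSG00000167880, chromosome 17 from 74000583 to 74023387 of GRCh37), envoplakin, was at 39.5, 42.5 and 41.3 CPM with DMSO and 15.7, 12.1 and 13.5 CPM with JQ1 in UM-SCC-47. In UPCI-SCC-090 it went from 45.9, 60.4 and 33.8 CPM to 3.49, 3.85 and 1.85 CPM. Treated libraries were below all untreated ones, by a wider gap in UPCI-SCC-090. The changes on the log2 scale were −1.58 ± 0.16 and −3.93 ± 0.43 (edgeR BH-adjusted p = 0.00064 and 0.0038). The difference of −2.22 ± 0.49 passed (edgeR BH-adjusted p = 0.021), but not without UM-SCC-47 DMSO replicates 1, 2 or 3 (0.068, 0.058 and 0.064), UM-SCC-47 JQ1 replicate 1 (0.065) or UPCI-SCC-090 DMSO replicate 2 (0.05), nor with a correction for length (0.075). PPL, periplakin, its partner in the scaffold, went from 176, 212 and 182 CPM to 121, 60.4 and 108 CPM in UM-SCC-47 and from 32.8, 39.5 and 24.2 CPM to 7.76, 15.3 and 4.36 CPM in UPCI-SCC-090. The groups were apart in both lines. Its log2 fold changes of −0.98 ± 0.26 and −1.81 ± 0.51 (edgeR BH-adjusted p = 0.025 and 0.041) were less firm than those of EVPL. In UM-SCC-47 the call was lost without DMSO replicates 1, 2 or 3 (edgeR BH-adjusted p = 0.064, 0.086 and 0.067), and in UPCI-SCC-090 without DMSO replicates 1, 2 or 3 (0.091, 0.11 and 0.08) or JQ1 replicates 1 or 3 (0.22 and 0.11). Without the libraries of steep GC trend PPL was at −1.02 in UPCI-SCC-090 (edgeR BH-adjusted p = 0.16), and with the GC and length correction at −0.63 in UM-SCC-47 (0.08). In UPCI-SCC-090 that correction gave −1.19 (0.012), while the call was lost with the length correction alone (0.15), RLE (0.1) or upper-quartile factors (0.076), and without the filter (0.074). CDSN rose in UM-SCC-47, from 6.03, 5.98 and 5.66 CPM to 14.3, 13.5 and 8.99 CPM, without overlap (log2 fold change 1.06 ± 0.22, edgeR BH-adjusted p = 0.01), and had 9 and 5 counts in UPCI-SCC-090. EVPL, PPL and CDSN each overlap another gene of the table on the opposite strand.

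Changes with JQ1 differed by transcript length over all genes. In UPCI-SCC-090 the median log2 fold change of all genes was 0.36 for transcripts under 1 kb, 0.04 from 1 to 2 kb, −0.12 from 2 to 4 kb and −0.36 at 4 kb and more, and in UM-SCC-47 it was 0.18, 0.02, −0.05 and −0.09. Of the 11 tested members under 1 kb, 6 rose and 1 fell in UPCI-SCC-090, and the 3 of 4 kb and more, TCHH, EVPL and PPL, all fell. In this class 23.6% of all genes fell, and of the genes under 1 kb 23.9% rose. Both tested members of 2 to 4 kb, IVL and TGM1, rose, where the median of all genes was below 0. In UM-SCC-47 the median of the 10 tested members under 1 kb was −0.63, against 0.18 for all genes of that class. Of these members 5 fell and 2 rose, beside 17.3% and 21.3% of all genes of the class. FLG, the longest member tested, rose while the other 3 of 4 kb and more fell, where 12.3% of all genes rose and 26.7% fell. After a smooth correction of every library for GC content and length, a step added after the data were seen, 12 members were higher and 6 lower in UPCI-SCC-090 and 4 higher and 13 lower in UM-SCC-47. The large changes kept most of their size. In UPCI-SCC-090 S100A14 was then at 3.88, S100A16 at 3.60, S100A9 at 3.79, IVL at 3.74, EVPL at −2.81 and TCHH at −4.26 on the log2 scale (edgeR BH-adjusted p from 0.00031 to 0.0068). Smaller rises shrank, S100A6 from 1.59 to 0.71, S100A2 from 1.15 to 0.67 and S100A13 from 2.00 to 1.14, and still passed (edgeR BH-adjusted p = 0.038, 0.044 and 0.006). The fall of S100A10 there grew from −0.89 to −1.89 (edgeR BH-adjusted p = 0.0011), and S100A4 and S100A11 were called lower, at −1.37 and −1.02 (0.0017 and 0.036). With the correction for length alone S100A6 in UM-SCC-47 went from 1.16 to 0.75 (edgeR BH-adjusted p = 0.00054).

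**Figure D4:**
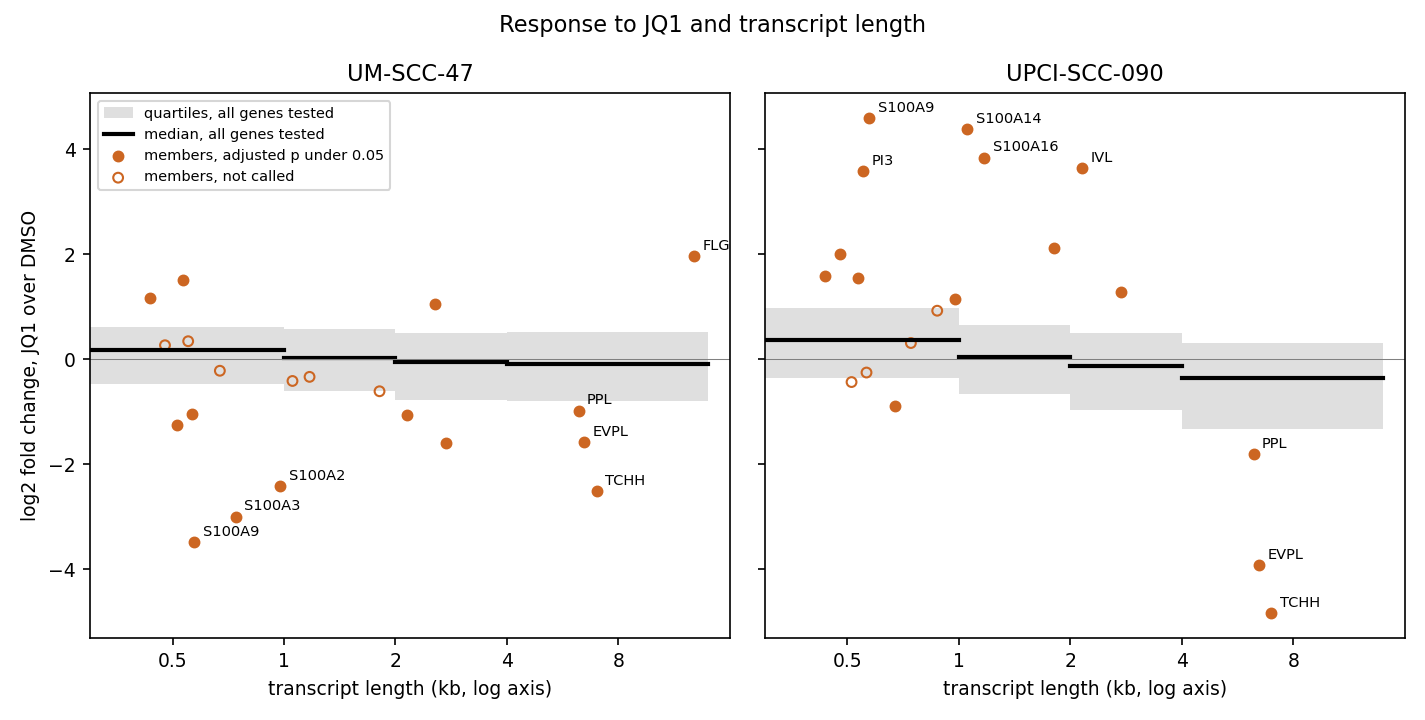
Log2 fold change of JQ1 over DMSO against transcript length in kb (log axis) in both lines. Points are members, filled where the adjusted p was under 0.05, the black lines are medians of all genes tested in 4 length classes and the grey bands their quartiles. In UPCI-SCC-090 the black line steps down from 0.36 to −0.36, and S100A9, S100A14, S100A16, IVL, EVPL and TCHH lie far outside the grey bands.

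Other genes of the same pathways, listed by role, did not all follow. Of 23 other transglutaminases and envelope proteins, 15 were tested in UM-SCC-47, where 8 fell and 2 rose beside 25.5% and 16.1% of all genes. In UPCI-SCC-090, 13 were tested, of which 2 fell and 3 rose beside 20.4% and 7.67% of all genes. AQP3, the glycerol and water channel of basal keratinocytes, had a log2 fold change of −1.56 ± 0.18 in UM-SCC-47 and 1.96 ± 0.30 in UPCI-SCC-090 (edgeR BH-adjusted p = 0.0011 and 0.0056), a difference of 3.61 ± 0.39 (edgeR BH-adjusted p = 0.0004). CSTA, a cysteine protease inhibitor found in the envelope, fell by 1.91 ± 0.22 in UM-SCC-47 (edgeR BH-adjusted p = 0.0012), and CSTB rose by 0.90 ± 0.21 in UPCI-SCC-090 (edgeR BH-adjusted p = 0.022). SPINK5, an inhibitor of the proteases of desquamation, fell in both lines, with log2 fold changes of −5.22 ± 0.68 and −3.88 ± 0.95 (edgeR BH-adjusted p = 0.0017 and 0.025). Of 23 genes of the barrier lipids 14 were tested in UM-SCC-47, where 7 rose and 2 fell beside 16.1% and 25.5% of all genes, and 13 in UPCI-SCC-090, where 0 rose and 1 fell beside 7.67% and 20.4%. Examples are ELOVL4, which makes very long fatty acids and rose by 1.43 ± 0.28 in UM-SCC-47, and NIPAL4, which fell by 2.77 ± 0.19 there (edgeR BH-adjusted p = 0.0082 and 0.00023). In the same families as the members, 1 of 10 other S100 genes was tested in UM-SCC-47, S100P, which fell by 0.83 ± 0.22 (edgeR BH-adjusted p = 0.024), and of 28 other SPRR, LCE and loricrin genes 1 was tested in UM-SCC-47 and not called.

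Of 29 transcription factors of keratinocyte differentiation, 5 rose and 7 fell among the 27 tested in UM-SCC-47, and 5 rose and 4 fell among 29 in UPCI-SCC-090. In UM-SCC-47 these counts lie near the 16.1% and 25.5% of all genes. In UPCI-SCC-090, 7.67% of all genes rose and 20.4% fell. GRHL3, a Grainyhead-like factor of barrier formation, fell by 2.23 ± 0.19 in UM-SCC-47 and was at 0.77 ± 0.26 in UPCI-SCC-090 (edgeR BH-adjusted p = 0.00039 and 0.071), a difference of 3.12 ± 0.38 (edgeR BH-adjusted p = 0.00084). ELF3, an epithelial ETS factor, and JUNB, an AP-1 subunit, rose in UPCI-SCC-090 by 2.03 ± 0.28 and 1.90 ± 0.29 (edgeR BH-adjusted p = 0.0047 and 0.0058), and their responses differed between the lines by 2.26 ± 0.38 and 2.36 ± 0.45 (edgeR BH-adjusted p = 0.0058 and 0.0099). Other factors went otherwise. TP63 was at −3.02 ± 0.285 in UM-SCC-47 and −1.43 ± 0.685 in UPCI-SCC-090 (edgeR BH-adjusted p = 0.00055 and 0.18). Its difference of 1.64 ± 0.71 between the lines was not called (edgeR BH-adjusted p = 0.23). FOSL1, another AP-1 subunit, and NOTCH1, a receptor that promotes differentiation, fell in both lines, with log2 fold changes of −3.27 and −1.61 for UM-SCC-47 and −1.68 and −2.59 for UPCI-SCC-090 (edgeR BH-adjusted p = 0.00036, 0.0026, 0.011 and 0.0084). TFAP2A, an AP-2 factor, rose by 0.85 in UM-SCC-47 and fell by 1.17 in UPCI-SCC-090 (edgeR BH-adjusted p = 0.0034 and 0.024), and its difference between the lines was −1.90 ± 0.33 (edgeR BH-adjusted p = 0.007). That of JUN, an AP-1 subunit as well, was −1.71 ± 0.40 (edgeR BH-adjusted p = 0.025). KLF4, a barrier factor, was called in neither line, at −0.10 ± 0.13 and −0.38 ± 0.25 (edgeR BH-adjusted p = 0.56 and 0.31). Among 13 partners and receptors of S100 proteins, 4 rose and 1 fell of 12 tested in UM-SCC-47, beside 16.1% and 25.5% of all genes. In UPCI-SCC-090, 1 rose and 3 fell of 13 tested, near the 7.67% and 20.4% of all genes. The keratins of suprabasal mucosa, KRT13 and KRT4, had opposite responses like those of IVL, at −4.34 ± 0.12 and −3.44 ± 0.21 on the log2 scale in UM-SCC-47 and 4.56 ± 0.28 and 5.49 ± 0.40 in UPCI-SCC-090 (edgeR BH-adjusted p = 5.1e-05, 0.00016, 0.0023 and 0.0034). The pattern was not particular to them. KRT15 and KRT6A were at −0.79 and −0.67 in UM-SCC-47 (edgeR BH-adjusted p = 0.0038 and 0.044). In UPCI-SCC-090 they were at 3.37 and 1.27 (edgeR BH-adjusted p = 0.0037 and 0.0079). Other keratins did not reverse, such as KRT10 at −0.82 in UM-SCC-47 and −0.40 in UPCI-SCC-090 (edgeR BH-adjusted p = 0.017 and 0.33). Of the keratins of simple epithelium, KRT8 and KRT18 rose in UM-SCC-47 by 2.32 ± 0.20 and 2.79 ± 0.23 (edgeR BH-adjusted p = 0.00043 and 0.00039), and KRT7 fell by 2.10 ± 0.22 there (edgeR BH-adjusted p = 0.00079).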

How the data were processed

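Total RNA was sequenced from stranded libraries depleted of ribosomal RNA. The authors ran Salmon, and the deposited values are its estimated counts per gene, 1 column per library and not scaled between libraries. According to the submitters' processing notes the tools were Salmon 0.8.2 and DESeq2 1.28.0. The transcript index was not given in the sources used here. Because Salmon shares out reads that fit several transcripts, counts of near-identical genes are uncertain.

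The values were rounded to whole counts and edgeR 4.0.16 was run in R 4.3.3. The filter was filterByExpr (minimum count 10, minimum total 15) and the scaling TMM, and each line had its own comparison of JQ1 with DMSO in the quasi-likelihood F test over 13440 and 13150 genes. The lines were compared in a fit of 12 libraries over 14396 genes, whose interaction of line and treatment is positive where the response was higher in UPCI-SCC-090. Calls have a Benjamini-Hochberg adjusted p under 0.05, taken over all genes tested. A standard error is the size of the log2 fold change over the root of F. Levels per kb were scaled over all 12 libraries and divided by transcript length. Against a group at 0, bounds use a floor of 3 counts over the group and cover counting error only. DESeq2 1.42.0 was an alternative, beside other scalings, no filter, GC correction, a replicate block and leaving out libraries. Corrections for length were added after seeing the data. The scripts were tested on simulated data.

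Coordinates, lengths and GC content came from GENCODE 44 lifted to GRCh37, which held 20015 of the 20738 gene IDs, and start regions from RefSeq. The members and gene lists were chosen with earlier results of these data known. Members were named with values in each library where they were called and reached 5 CPM in a group, and others where a description needed them. From each list up to 3 called genes per direction and line with at least 5 CPM could be named, of which the text names some. KLF4 was named after its values were seen, and named genes are also given in the other line or in the difference. Whether replicate numbers pair the libraries was checked by the correlation of deviations from the group means. In UPCI-SCC-090 it was 0.10, 0.82 and 0.24 for numbers 1, 2 and 3, so the blocked value is given where it changes a call, although DMSO replicate 1 correlated more with JQ1 replicate 3 (0.83). In UM-SCC-47 it was −0.22, 0.22 and 0.51. Replicates differed by more than sampling noise, and none was counted as a duplicate.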

Additional observations from a re-analysis of the deposited data

Results flagged for a closer look

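In 14 members the response to JQ1 differed between the lines by the interaction test of edgeR (adjusted p under 0.05). Some of them passed the filter through the group in which they were high. The difference, UPCI-SCC-090 minus UM-SCC-47 on the log2 scale, was 8.21 for S100A9, 4.90 for S100A14, 4.82 for IVL, 4.59 for CALML5, 4.29 for S100A16, 3.67 for S100A2, 3.40 for S100A3, 2.98 for TGM1, 2.85 for CALML3 and 1.83 for S100A13. These 10 members passed with the replicate block as well. PI3 at 3.35 and TGM5 at 9.65 did not. SPRR1B stood at 7.34, and like TGM5 it had 0 counts in the UM-SCC-47 JQ1 libraries, so both values depend on the prior count and are no bounds. Set to a floor of 3 counts over the group, they were 4.19 for SPRR1B and 3.39 for TGM5. EVPL was the member whose response was lower in UPCI-SCC-090, at −2.22.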

How the results depend on the processing

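The counts of members called were recomputed under 19 alternatives within a line and 24 across the lines. Members higher with JQ1 numbered 4 in each fit for UM-SCC-47 and 10 to 12 against 11 in UPCI-SCC-090 beside the fits without 1 library, which gave 8 to 10. Members lower numbered 10 to 15 against 10 in UM-SCC-47, and 9 to 16 without 1 library. In UPCI-SCC-090 the members lower were 4, and 2 without its libraries of steep GC trend, without the filter, or scaled by upper quartile or RLE. They were 5 with the length correction, 6 with the GC and length correction with or without the replicate block, and 2 to 3 without 1 library. Members with a higher response in UPCI-SCC-090 were 13, and 11 to 15, or 9 to 14 without 1 library. Those with a lower response were 1, and 0 with the length correction, 2 with the GC and length correction with or without the replicate block, and 0 to 2 without 1 library. Members higher in UPCI-SCC-090 with DMSO were 4, and 7 with the GC and length correction with or without the block, or 3 to 5 without 1 library, and those lower were 11 to 12 throughout. With the replicate block alone the counts were 4 higher and 11 lower in UM-SCC-47, 11 and 3 in UPCI-SCC-090, 11 and 1 for the difference of the responses, and 5 and 11 for the difference with DMSO, where CALML5 was added (1.29). In UM-SCC-47, where libraries of the same number correlated at −0.22, 0.22 and 0.51, the block added CALML3 (−0.63). What a replicate number marks is not known. No called member changed sign.

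Sign changes occurred in values that were not called. In UPCI-SCC-090 S100A3 became −0.35 with the length correction, −0.18 with GC and length and −0.14 with the block added, S100A11 became 0.02 with RLE size factors and 0.018 by DESeq2 and 0.14 without the libraries of steep GC trend, and S100A4 became 0.12 without those. In UM-SCC-47 S100A13 became −0.10, −0.068 and −0.083 with the same 3 corrections and PI3 −0.010 with the length correction. For the difference between the lines CNFN became −0.25, −0.019 and −0.028 with them and −0.24 to 0.36 without 1 library, and PPL became 0.077 without the libraries of steep GC trend. The cause of these changes was not tested. Depth limits the low members, since IVL, S100A9 and PI3 had 7, 6 and 6 counts over the DMSO libraries of UPCI-SCC-090.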
